A study of Danio rerio with 2 samples.

Results

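The cells described here are the dividing cells of a neural crest-like cluster of the zebrafish embryo. They were chosen by deposited values: the cell belongs to cluster 1 of the authors' clustering, its assigned cell cycle phase is S or G2M, and its own library holds fewer than 5 UMIs (unique molecular identifiers, each standing for 1 captured transcript) summed over dct, pmela and tyrp1b, genes of melanin synthesis and the melanosome. Of 4735 cells in the series, 815 lie in cluster 1 and 216 meet the rule, 151 in the low GFP library and 65 in the high GFP library. Beside them stand 397 cells of the same cluster under the same pigment limit with phase G1, of which 202 are low-library and 195 high-library cells.

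All embryos carried Tg(mitfa:GFP), a reporter driven by the promoter of mitfa, and were dissociated at 24 hours post fertilisation (hpf). The labels give neither the number of embryos nor the embryo of a cell. GFP-positive cells were sorted into a fraction with low and a fraction with high fluorescence, and each fraction gave 1 10x Genomics 3' library. The reporter transcript was not analysed here. With 1 library per fraction there is no replicate and no test: intervals are 95% and cover counting error only, and fraction and library cannot be told apart. The study used the sorted cells to ask whether proliferation and pigmentation genes are carried by separate cells of the pigment lineage in vivo. For that it kept pigment lineage cells with endogenous mitfa, clustered these anew and took out the xanthophores. Its cell set therefore differs from the members described here, which were not chosen by mitfa.

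The neural crest is a migratory population that leaves the dorsal neural tube of the vertebrate embryo and gives rise to pigment cells, peripheral neurons, glia and, in the head, skeletal ectomesenchyme. Foxd3 and Sox10 are transcription factors that mark it, and mitfa, a target of Sox10, specifies the melanophore lineage. A dividing cell copies its DNA in S phase with the Mcm helicase, the sliding clamp Pcna and nucleotide-making enzymes, then condenses and separates its chromosomes in G2 and M phase with condensins, topoisomerase, kinesins and the kinases Cdk1 and Plk1.

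The label of the cells was checked against its 4 markers. The members held mki67 (ENSDARG00000091150), a protein that coats the chromosomes of dividing cells, at 537 CPM (counts per 1000000 UMIs of the class; interval 500 to 576) in low-library and 641 CPM (584 to 701) in high-library cells, against 32.8 and 21.4 in the G1 cells. The clamp pcna (ENSDARG00000054155) stood at 614 (574 to 655) and 530 (479 to 585), against 83.3 and 37.1. These 2 genes belong to the cycle programme that phases are assigned from, so their difference describes the choice of cells. The crest marker sox10 was at 642 (601 to 685) and 655 (598 to 717) in the members and at 810 and 813 in the G1 cells, and foxd3 was at 416 (383 to 450) and 385 (342 to 433) against 498 and 349. All 151 low-library members and 64 of 65 high-library members held at least 1 UMI of foxd3 or sox10. The member without either held 207 UMIs of the leukocyte genes lcp1, spi1b, coro1a and mfap4, and 1 low-library member held 66 of them together with 6 sox10 and 5 foxd3 UMIs. The next highest member had 1 such UMI.

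Depth differed between the classes. The median member held 9640 UMIs (low library) or 11399 UMIs (high library), and the median G1 cell 7715 and 8129, so members were 1.25 and 1.40 times as deep. Genes detected per cell had medians of 2316 and 2712 in the members against 1967.5 and 2072 in the G1 cells. When every cell was thinned to 5624 UMIs, the members still showed 1679 and 1735 genes against 1621.5 and 1658. RNA content and capture cannot be told apart in these values. Mitochondrial genes took a median of 1.86% and 1.91% of a member's UMIs, and ribosomal protein genes 33.9% and 32.8%, against 36.1% and 35.4% in the G1 cells. The libraries shared 1 deposited barcode sequence and none among the cells compared.

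Members made up 42.8% (37.6 to 48.1, exact Clopper-Pearson) of the pigment-poor cluster 1 cells in the low library and 25.0% (19.9 to 30.7) in the high library. The intervals did not overlap, and without the 2 members holding leukocyte transcripts the shares were 42.6% and 24.7%. Among cluster 1 cells at or over the pigment limit, 2 of 27 in the low and 8 of 175 in the high library had phase S or G2M, a share of 7.41% (0.910 to 24.3) and 4.57% (1.99 to 8.81). Elsewhere the share ran from 0 of 22 cells in cluster 6 of the low library to 90.3% in cluster 5. The count of 0, set to 3 counts, allows up to 13.6%, and its exact interval reached 15.4%. Cluster 0, the largest, had 78.7% and 79.1%. Cycling members were 6.4% of all low-library cells and 2.74% of all high-library cells.

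The phases split the members unequally. In the low library 68 members were in S and 83 in G2M, and in the high library 23 and 42, a G2M share of 55.0% (46.7 to 63.1) and 64.6% (51.8 to 76.1) with intervals that overlap. G2M members were deeper than S members, with medians of 10050 against 8325 UMIs (low library) and 11937.5 against 9848 UMIs (high library).

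**Figure D1:**
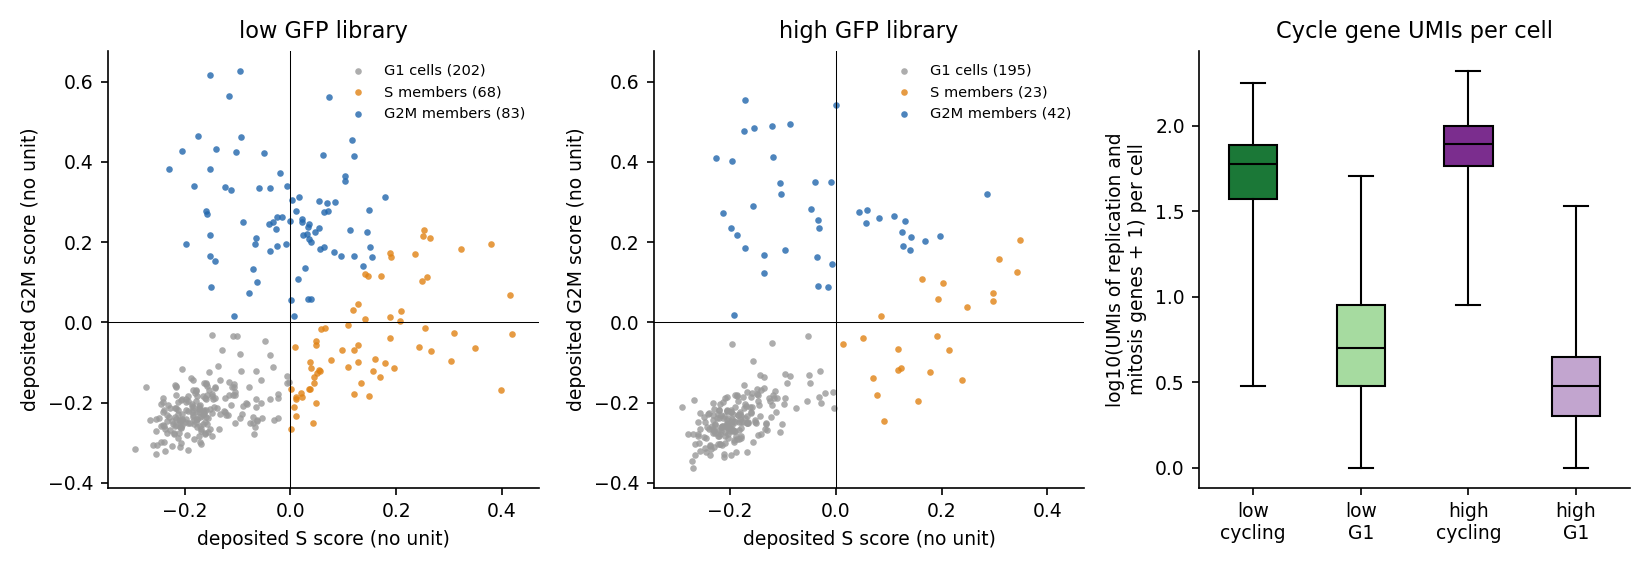
Deposited S score (horizontal) and G2M score (vertical, both without unit) of each compared cell in the low and the high GFP library, and a box plot of log10 of the UMIs of replication and mitosis genes plus 1 per cell (box: quartiles; whiskers: lowest and highest cell). The 151 and 65 members lie right of or above 0, the G1 cells below and left, and the median member held 59 (low) and 77 (high) cycle UMIs against 4 and 2 in G1 cells.

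Cells lay close to the border of the rule on both sides, most of them in the low library. The higher of both deposited scores lay under 0.05 in 21 low-library and 2 high-library members, whose median was 25 and 26.5 UMIs of the replication and mitosis lists. Among G1 cells, 14 and 8 lay within 0.05 below 0, with a median of 17 and 11 such UMIs. The median over all members was 59 and 77, and over all G1 cells 4 and 2. On the pigment side, 2 and 6 members held 3 or 4 pigment UMIs, and 0 and 4 cells of phase S or G2M lay just outside with 5 or 6. No pigment UMI at all was found in 92.1% of low-library and 73.8% of high-library members, against 79.2% and 54.9% of the G1 cells. Summed, the rule's pigment genes took 12.4 and 47.3 CPM in the members and 41.7 and 106 in the G1 cells.

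Replication genes were higher in the members without exception among those measured. A gene received a log2 ratio of members to G1 cells where it had at least 50 UMIs over both classes in that library, as did 4857 genes for the low library and 4203 genes for the high one. Across all of them the median ratio was -0.02 and -0.04, 8.01% (low) and 7.45% (high) were at least 2-fold higher in the members, and 4.18% and 6.71% at least 2-fold lower. In the replication list 27 of 28 genes in the low and 20 of 20 in the high library were at least 2-fold higher, with a median of 2.18 and 3.30. Because phases are assigned from genes of this kind, nothing is read from the count. rrm2, a subunit of ribonucleotide reductase, stood at 132 and 115 CPM in the members and at 6.31 and 12.6 in the G1 cells. The histone mRNA binding protein slbp stood at 66.9 and 75.7, against 5.05 and 3.78.

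The mitosis list was further apart: 33 of 33 and 21 of 21 genes were at least 2-fold higher in the members, with a median of 4.68 and 5.29. top2a, the topoisomerase that untangles sister chromatids, had 250 UMIs in the low-library members and 4 in the G1 cells, a log2 ratio of 6.09 (4.72 to 7.98), and 171 and 3 in the high library, 6.94 (5.36 to 9.23). tpx2, a spindle assembly factor, stood at 194 and 227 CPM against 3.79 and 10.1. By the smaller of both libraries' ratios the 12 highest genes included, beside top2a, the checkpoint gene mad2l1, cdc20 (the activator of the anaphase-promoting complex), the condensin subunit ncapg, the centromere protein cenpf, dlgap5 (a spindle protein), pclaf (a partner of Pcna) and si:ch211-69g19.2, named cdca3 in the reference gene table. mad2l1 had ratios of 5.37 (4.12 to 7.01) and 6.95 (5.06 to 10.01). Another 4 of the 12 carry clone names, si:ch211-113a14.12, si:ch211-113a14.18, zgc:173585 and CABZ01058261.1. CABZ01058261.1 stood at 175 and 168 CPM in the members against 3.79 and 4.41. si:ch211-113a14.12 had no UMI in the low-library G1 cells and 127 in the members, a log2 ratio of at least 5.53 against 3 counts over the class. When replication, mitosis and chromatin lists were set aside, aspm, a spindle pole protein, came in at 4.94 (3.78 to 6.4) and 6.36 (4.78 to 8.66) together with si:dkey-30c15.10, anln2 in the reference table, at 4.68 and 5.16.

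**Figure D2:**
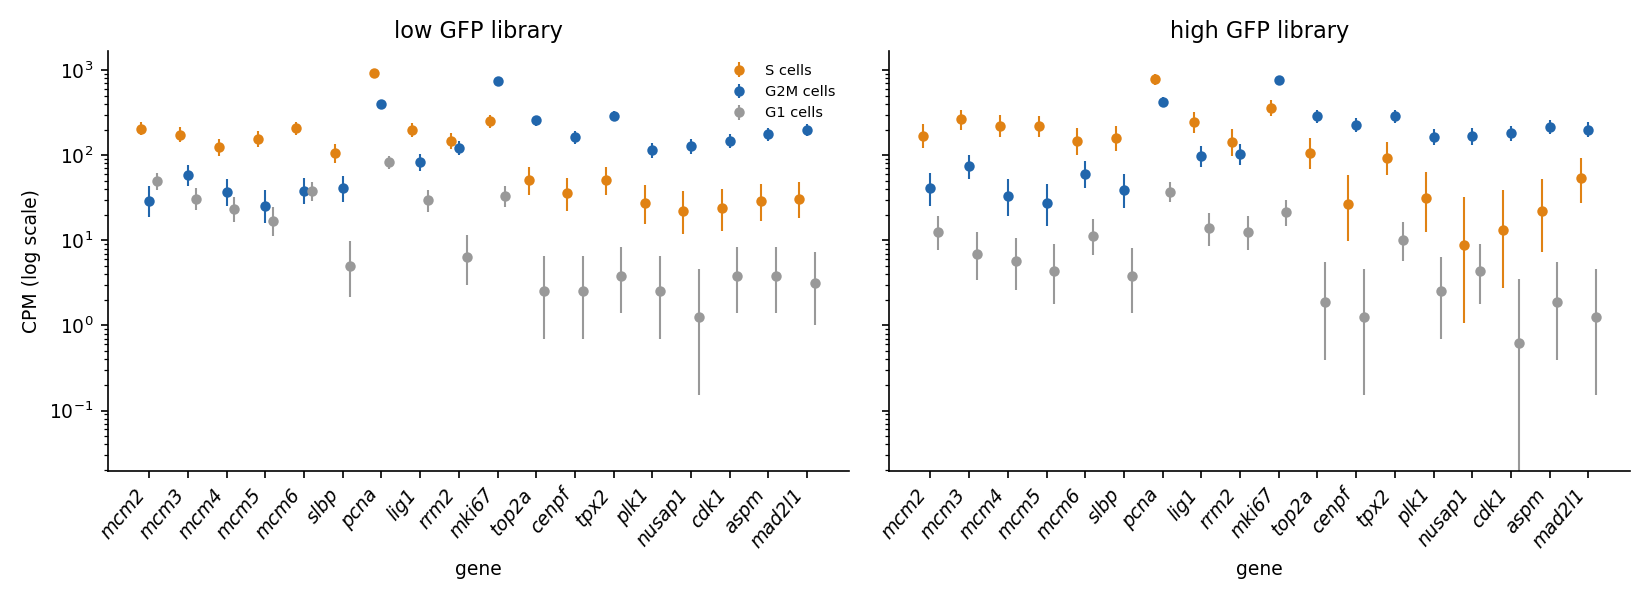
Level of 18 cycle genes, in CPM on a log scale, in S members, G2M members and G1 cells of each library. Points are summed UMIs of the class, bars the exact 95% Poisson interval (counting error only), and a class at 0 has no point. The mcm genes and slbp are highest in S members, top2a to mad2l1 in G2M members, and the low-library G1 cells hold more mcm2 (49.2) than the high-library ones (12.6).

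Within the members the 2 phases carried different genes, as their assignment requires. Of 1758 genes with a G2M to S ratio in both libraries, 2.1% were at least 2-fold higher in G2M and 0.739% lower in both. mcm5, a helicase subunit, stood at 156 CPM (126 to 191) in S and 25.6 (16.0 to 38.7) in G2M members of the low library, and at 218 (161 to 289) and 27.2 (14.8 to 45.6) in the high library. The other genes lowest in G2M were mcm2, mcm3, mcm4, mcm6, slbp, the cyclin ccnd2a and the chemokine cxcl18b. cxcl18b, which is in no cycle list, had 114 CPM in S and 23.2 CPM in G2M members (low library), then 192 and 52.4 CPM (high library), carried by 23 and 13 members. In the other direction cdk1, the mitotic kinase, stood at 23.7 in S and 148 in G2M members (low) and at 13.4 and 180 (high). plk1 was at 27.1 and 115, and at 31.2 and 163. With cenpe, cenpf, nusap1, anln, aspm and mad2l1 these were the 8 highest genes in G2M. mki67 was present in both phases, at 249 and 735 in the low and at 361 and 762 in the high library.

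The G1 cells of the 2 libraries were not alike in cycle genes. mcm2 was at 49.2 (38.9 to 61.4) in the low-library and 12.6 (7.69 to 19.4) in the high-library G1 cells, while the members held 101 and 79.7. mcm3 was at 30.9 against 6.92, and pcna at 83.3 against 37.1. The chromatin protein hmgb2a was at 725 in the low-library G1 cells and 347 in the high, with 3694 and 3809 in the members. At equal depth, 52.7% (45.2 to 60.2) of low-library and 24.6% (18.3 to 31.7) of high-library G1 cells held at least 3 UMIs of the replication and mitosis lists (64.9% and 35.9% without thinning), and every member did (99.3% and 100% without thinning). For these replication genes the larger ratios of the high library stand beside lower levels in its G1 cells.

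Chromatin and DNA packing genes, which hold architectural proteins, histone variants, histone chaperones and tubulins, were higher in part. Of 32 and 28 measured genes, 19 and 17 were at least 2-fold higher in the members and none lower, with medians of 1.29 and 1.14. Over all genes 8.01% and 7.45% were at least 2-fold higher. Members were chosen by phase, and the genes behind the phases are not given, so nothing is read from the count. hmgb2a had the ratios 2.35 (2.26 to 2.44) and 3.45 (3.32 to 3.59), hmgb2b 1.46 and 2.5, and hmgn2, which binds nucleosomes, 1.28 and 2.27. hmga1a, another architectural protein, was at 0.67 and 1.19. hmgn6 stood at 1720 and 1477 CPM in the members and at 1664 and 1378 in the G1 cells, ratios of 0.05 and 0.10. hmgb2a, hmgb2b, hmgn2 and hmga1a also had positive ratios of cycling to G1 cells in both libraries of cluster 0, where hmgb2a stood at 1.32 and 1.23, and of cluster 2, where it stood at 1.2 and 1.1. hmgn6 had negative ratios there, -0.45 and -0.36 in cluster 0 and -0.11 and -0.20 in cluster 2.

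Genes that start or restrain the cycle differed less by their list medians. In the list of G1 cyclins and cycle brakes 4 of 21 genes in the low library were 2-fold higher and none lower. In the high library 1 of 18 was higher and 3 lower, and the medians were 0.33 and -0.05. Single genes ran from -0.93 to 2.55 in the low library and from -2.19 to 1.37 in the high library. All-gene shares were 8.01% and 7.45% higher and 4.18% and 6.71% lower. Cyclin D1, ccnd1, stood at 266 and 251 in the members against 211 and 161. The inhibitor cdkn1ca stood at 209 (186 to 234) and 201 (170 to 236) against 351 (322 to 381) and 479 (445 to 514). gadd45bb, a growth arrest gene chosen after its values were seen, had ratios of -0.93 (-1.16 to -0.71) and -1.67 (-1.96 to -1.38). In the growth list, mycn, a Myc family factor, was at 2743 and 2353 CPM in the members and 3112 and 2459 in the G1 cells. The nucleolar gene ncl was at 1176 and 1126 against 1470.0 and 1179. The list's medians were -0.30 and -0.09, with 1 of 26 genes 2-fold higher in each library and 0 and 2 lower. Its genes ran from -0.76 to 2.43 in the low library and from -1.58 to 3.59 in the high library.

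Genes that specify the neural crest had list medians close to even between members and G1 cells, while single genes differed. The genes ran from -1.46 to 1.22 in the low library and from -1.83 to 1.06 in the high library. Of 18 and 17 measured, 1 and 1 were 2-fold higher and 2 and 3 lower, and the medians were 0.12 and 0.05, near the all-gene medians. The all-gene shares were 8.01% and 7.45% higher and 4.18% and 6.71% lower. sox10 had the ratios -0.33 (-0.46 to -0.21) and -0.31 (-0.46 to -0.16). foxd3 had -0.26 (-0.42 to -0.11) and 0.14 (-0.07 to 0.35), of opposite sign, and only the low-library interval left out 0. tfap2a, an activator of crest genes, had 0.26 (0.08 to 0.44) and -0.04 (-0.31 to 0.21). id1, id2a and id3, inhibitors of basic helix-loop-helix factors, lay between -0.31 and 0.27. Against this, msx1b and tfap2e were 2-fold lower in both libraries. msx1b, a homeobox gene of the neural plate border, stood at 49.7 and 54.1 in the members against 110 and 168, and its paralogue msx2b went the other way, at 191 and 100 against 97.2 and 51.0. crestin, a zebrafish crest transcript, had 150 and 168 against 222 and 327. msx1b, tfap2e and msx2b were named after their values were seen.

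Most members held a crest and a cycle transcript together. They were chosen by phase within a crest-like cluster, so the shares with mki67 describe that choice. At equal depth mki67 and sox10 were both detected in 72.3% (64.0 to 79.6) of low-library and 79.0% (66.8 to 88.3) of high-library members, and in 14.3% and 8.77% of the G1 cells (78.1%, 86.2%, 19.8% and 13.3% without thinning). In cluster 0, whose median depth over all cells was 4559 and 4447 UMIs, 323 of 1001 and 235 of 767 cells were deep enough to be thinned. mki67 was found in 83.3% and 85.1% of those and both genes together in 1.24% and 4.68%, while over all cluster 0 cells without thinning mki67 was found in 64.5% and 64.1% and both in 1.30% and 3.13%. sox10 alone was found in 93.1% and 90.3% of members, 93.4% and 95.9% of G1 cells and 1.24% and 5.53% of cluster 0 cells (96.0%, 96.9%, 96.0%, 95.4%, 1.90% and 4.04% without thinning). Cells shallower than 5624 UMIs were left out: 14 and 3 members, 20 and 24 G1 cells, and 678 and 532 of cluster 0.

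**Figure D3:**
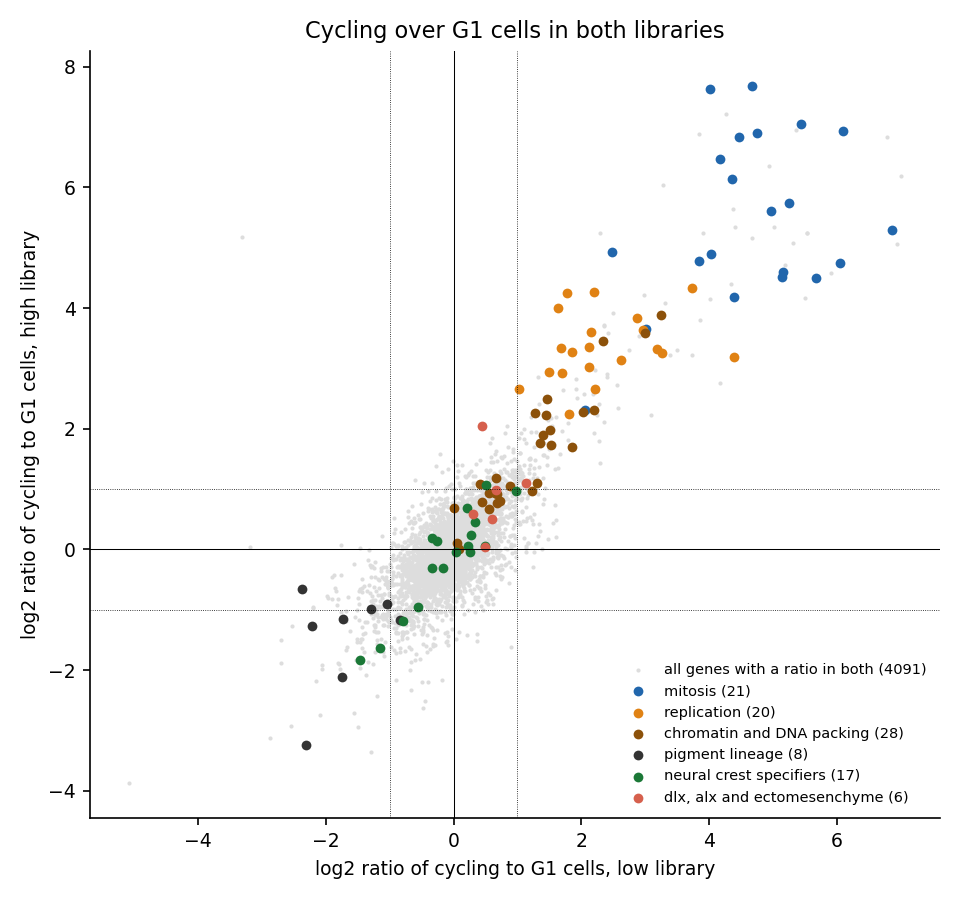
Log2 ratio of members to G1 cells in the low library (horizontal) and the high library (vertical) for 4091 genes with a ratio in both. Colours mark the lists and dotted lines 2-fold; mitosis (21 genes) and replication (20) lie at the upper right, neural crest specifiers (17) mostly around 0, and apoda.1 stands alone at -3.31 and 5.18.

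Pigment lineage genes were lower in the members, in a cell set already limited on 3 of their kin. Of 9 measured genes in the low library 7 were at least 2-fold lower and 1 higher, and of 13 in the high library 8 lower and none higher, where the background for lower genes was 4.18% and 6.71%. The medians were -1.73 and -1.17. mitfa, the lineage's specifier and the gene whose promoter drives the sorted reporter, stood at 256 (230 to 283) and 278 (242 to 319) CPM in the members against 459 (427 to 494) and 627 (589 to 668). Its ratios were -0.84 (-1.03 to -0.66) and -1.17 (-1.40 to -0.95). gpr143, a melanosome receptor, was at 28.3 and 82.4 against 94 and 184, and slc45a2, a melanosome transporter, at 16.6 and 93.3 against 77.0 and 226. The rule's own genes were at 2.76 and 6.76 (dct), 8.97 and 36.5 (pmela) and 0.690 and 4.05 (tyrp1b) in the members. tfec, a relative of mitfa, went against the list, at 30.3 and 44.6 against 13.3 and 6.29. It had under 50 UMIs over both classes in the high library and so is not among the 13 measured genes. In the high library 27 of its 33 UMIs came from 10 members with at least 4 UMIs of apoda.1, set apart after their values were seen, and the other 55 members were at 9.61 CPM. Without those 10 cells the high-library median of the list was -1.85.

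mitfa was not absent from dividing cells. At equal depth it was detected in 46.4% (38.1 to 55.4) of low-library and 56.5% (43.3 to 69.0) of high-library members, and in 68.1% and 84.2% of G1 cells (54.3%, 63.1%, 73.3% and 87.2% without thinning). In cluster 0 the share was 0.619% and 2.77% (0.499% and 2.61% without thinning). mitfa and mki67 were found together in 37.2% (29.1 to 45.9) and 50% (37.0 to 63.0) of members (45.0% and 56.9% without thinning). Members were chosen by phase, so the mki67 side of this share describes the choice of cells. Within the members mitfa was higher in G2M than in S, at 285 against 214 in the low and 336 against 147 in the high library. The ratios were 0.41 (0.10 to 0.74) and 1.19 (0.65 to 1.77). In the high library the 10 apoda.1 members, 6 in S and 4 in G2M, stood at 138 CPM of mitfa. The other 55 members, 17 in S and 38 in G2M, stood at 304. The part of the 10 cells in the high-library ratio was not tested.

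Genes outside the pigment list that were lowest in the members included enzymes and vesicle genes. By the smaller of both ratios, 2.22% of 4091 genes were at least 2-fold lower in both libraries and 4.45% higher. pah, phenylalanine hydroxylase, stood at 1.38 and 9.46 against 46.7 and 138. akr1b1.1, an aldo-keto reductase, stood at 38.6 (29.2 to 50.2) and 46.0 (31.8 to 64.2) against 284 (258 to 312) and 403 (373 to 436). rab32a, a small GTPase of melanosome traffic in mammals, had ratios of -2.06 and -1.92, the proton pump subunit atp6v1e1b -1.81 and -1.88, and the adaptor subunit ap3m2 -2.09 and -2.75. The flippase gene atp11a, the transporter slc2a11b and cax1 belong to the same 12. The xanthophore gene aox5, which the pigment list also holds, was at 10.3 and 5.41 against 51.1 and 51.0. The xanthophore marker list had medians of -1.80 and -1.28 over only 5 and 6 of its 13 genes. Of these 3 and 3 were at least 2-fold lower, against 4.18% and 6.71% of all genes, and the highest stood at 0.40 and 0.05. This list overlaps the pigment list, so it is not a separate result. The cytokine genes clcf1 (-2.15 and -2.18) and il11b (-2.54 and -2.92) complete the lowest genes with cdh1.

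cdh1, E-cadherin, was among the clearest of them. It stood at 31.0 (22.6 to 41.5) and 54.1 (38.6 to 73.6) CPM in the members and at 107 (91.2 to 124) and 214 (192 to 238) in the G1 cells. At equal depth it was found in 12.4% (7.40 to 19.1) and 19.4% (10.4 to 31.4) of members against 33.5% and 51.2% of G1 cells (17.9%, 29.2%, 37.6% and 54.9% without thinning), and in 1.55% and 2.98% of cluster 0 (1.70% and 2.74%). The adhesion and migration list as a whole had medians of 0.30 and -0.07, with 2 genes higher in each library and 1 and 2 lower, of 20 and 17. Among all genes 8.01% and 7.45% were higher and 4.18% and 6.71% lower. mcamb, a cell adhesion molecule, was higher in the members at 549 (511 to 588) and 464 (416 to 515) against 335 and 239. The matrix metalloprotease mmp17b, noted after its values were seen, was at 107 and 123 against 20.8 and 9.44. cdh2, N-cadherin, stood at 204 and 154 against 139 and 140.

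**Figure D4:**
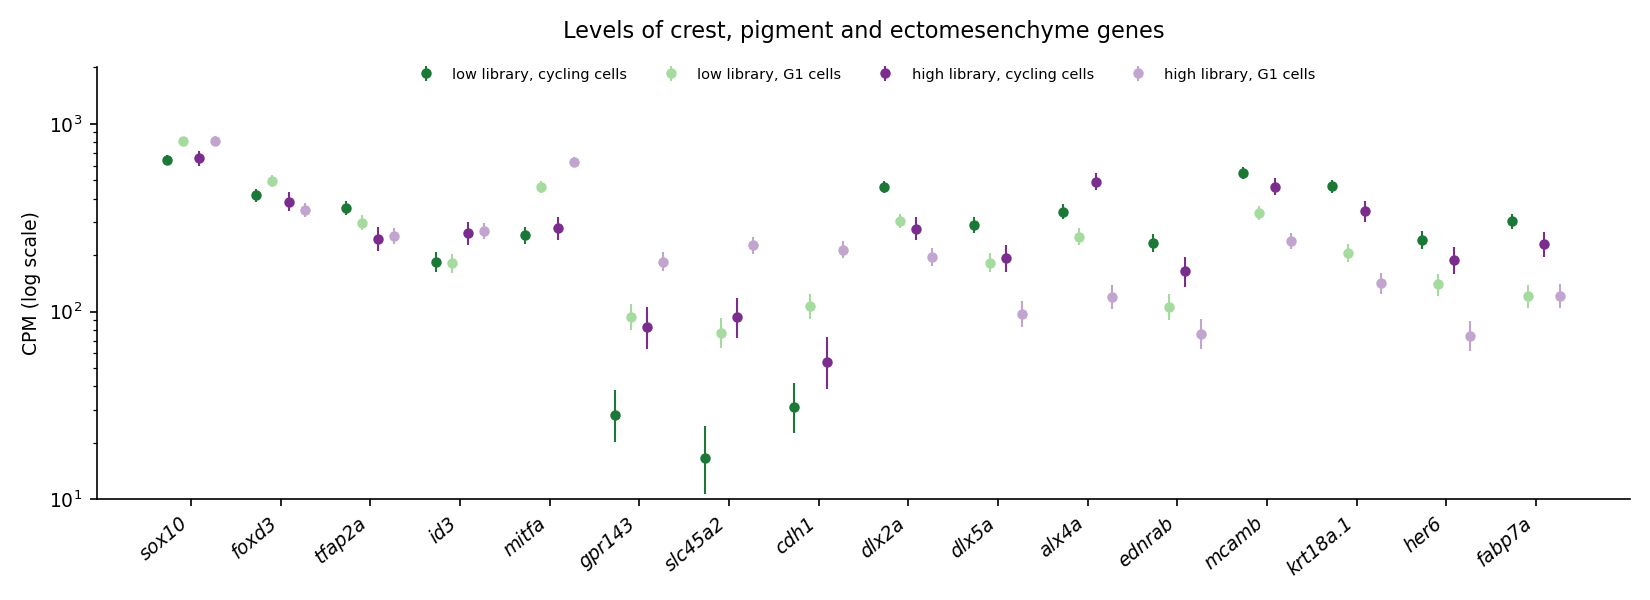
Levels of 16 genes in CPM (log scale) in members and G1 cells of both libraries. Points are summed UMIs of a class, bars the exact 95% Poisson interval (counting error only). sox10 to id3 lie close together, mitfa to cdh1 are lower in both sets of members, and dlx2a to fabp7a are higher in the members of both libraries. The crest genes crestin, msx1b, tfap2e and msx2b, which differ more, are not shown.

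Measured genes of the dlx, alx and ectomesenchyme list were higher in the members, most of them by less than 2-fold. The list of dlx, alx and related genes, with 36 found, had medians of 0.60 (9 genes) and 0.99 (7 genes). In it 2 and 3 genes were at least 2-fold higher and none lower, where the shares over all genes were 8.01% and 7.45% higher. The high-library genes past 2-fold included alx4a and alx4b. dlx2a, a homeobox gene of arch crest, stood at 461 (427 to 498) and 277 (240 to 318) in the members and at 304 (278 to 333) and 195 (174 to 218) in the G1 cells. dlx5a, its neighbour in the ventral arch programme, stood at 289 and 193 against 182 and 97.5. The intervals of members and G1 cells did not overlap for either gene in either library, though both ratios stayed under 2-fold. Such intervals cover counting error only and leave out the spread between cells. In the low library dlx5a was found in 59 of 151 members, with up to 34 UMIs in 1 cell. ednrab, an endothelin receptor of the arches, was at 233 and 164 against 106 and 76.1, with ratios of 1.14 (0.87 to 1.41) and 1.1 (0.73 to 1.48). alx4a, a homeobox gene of frontonasal crest, was at 341 and 493 against 251 and 120, and nr2f2 at 66.2 and 41.9 against 25.9 and 10.1. In the high library nr2f2 had under 50 UMIs over both classes and so is not among the 7 measured genes. In the high library 203 of the 365 alx4a UMIs and all 48 of its paralogue alx4b came from the same 10 apoda.1 members, which held no dlx2a. Those 10 members also held pnp4a at 397 CPM and tfec at 233 CPM, against 9.61 for each in the other 55. Which cell type they are was not tested, so their alx4a and alx4b are not read as ectomesenchyme. Without those 10 members the high-library median of the list was 0.93 over 6 genes, and alx4a stood at 260 CPM. In the low library 7 G1 cells with at least 4 UMIs of apoda.1 held 108 alx4a UMIs. The other 195 low-library G1 cells stood at 191 CPM of alx4a. dlx3b, an ectodermal dlx gene, was close to absent, at 2.76 and 4.05.

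At least 2 UMIs of the 8 dlx genes were found in 58.8% (49.7 to 66.7) of low-library members at equal depth and in 48.4% (35.5 to 61.4) of high-library members. The share in the G1 cells was 41.2% (34.0 to 48.7) and 27.8% (21.5 to 35.4), and in cluster 0 it was 1.55% and 2.98% (64.9%, 56.9%, 44.6%, 29.7%, 2.20% and 2.09% without thinning, in the same order). The intervals of members and G1 cells did not overlap in either library, though in the high library they all but touched, and this did not hold under every setting. They overlapped in both libraries with a pigment limit of under 2 UMIs (49.8 to 67.1 against 34.8 to 50.3 in the low and 38.6 to 66.7 against 24.8 to 41.2 in the high library) and after thinning to 2000 UMIs. In the high library they also overlapped with stricter phases (33.7 to 61.2 against 20.5 to 34.5) and without the top 5% of Scrublet scores (34.0 to 61.0 against 20.6 to 34.9). The share was higher in members than in G1 cells under each of these settings. Without the 2 members that hold leukocyte transcripts the members' shares were 59.6% and 49.2%. For posterior hox genes, counted from paralogue group 7 upwards, the members' share was the smaller one but the intervals overlapped in both libraries: at least 2 UMIs were found in 38.0% (29.8 to 46.6) and 29.0% (18.2 to 41.9) of members against 52.2% (44.7 to 59.6) and 42.4% (34.6 to 49.9) of G1 cells, with 20.7% and 20% in cluster 0 (41.7%, 30.8%, 51.5%, 43.6%, 17.2% and 15.6% without thinning). Both sets together were found in 19.0% and 14.5% of members and in 13.7% and 4.68% of G1 cells (26.5%, 20%, 15.3% and 7.69% without thinning). alx4a and the dlx set together were found in 28.5% and 21.0% of members (37.1% and 29.2% without thinning). hoxb9a was at 153 and 103 against 222 and 162, and hoxd9a and hoxc9a, named after their values were seen, had low-library ratios of -1.76 and -1.07. The hox and axial list had medians of -0.26 and -0.66, and neither sign was stable. The high-library median was 0.12 with the limit of under 2 UMIs and -0.04 with no limit, and with a minimum of 200 UMIs, which left 5 genes, the medians were 0.08 and 0.22.

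**Figure D5:**
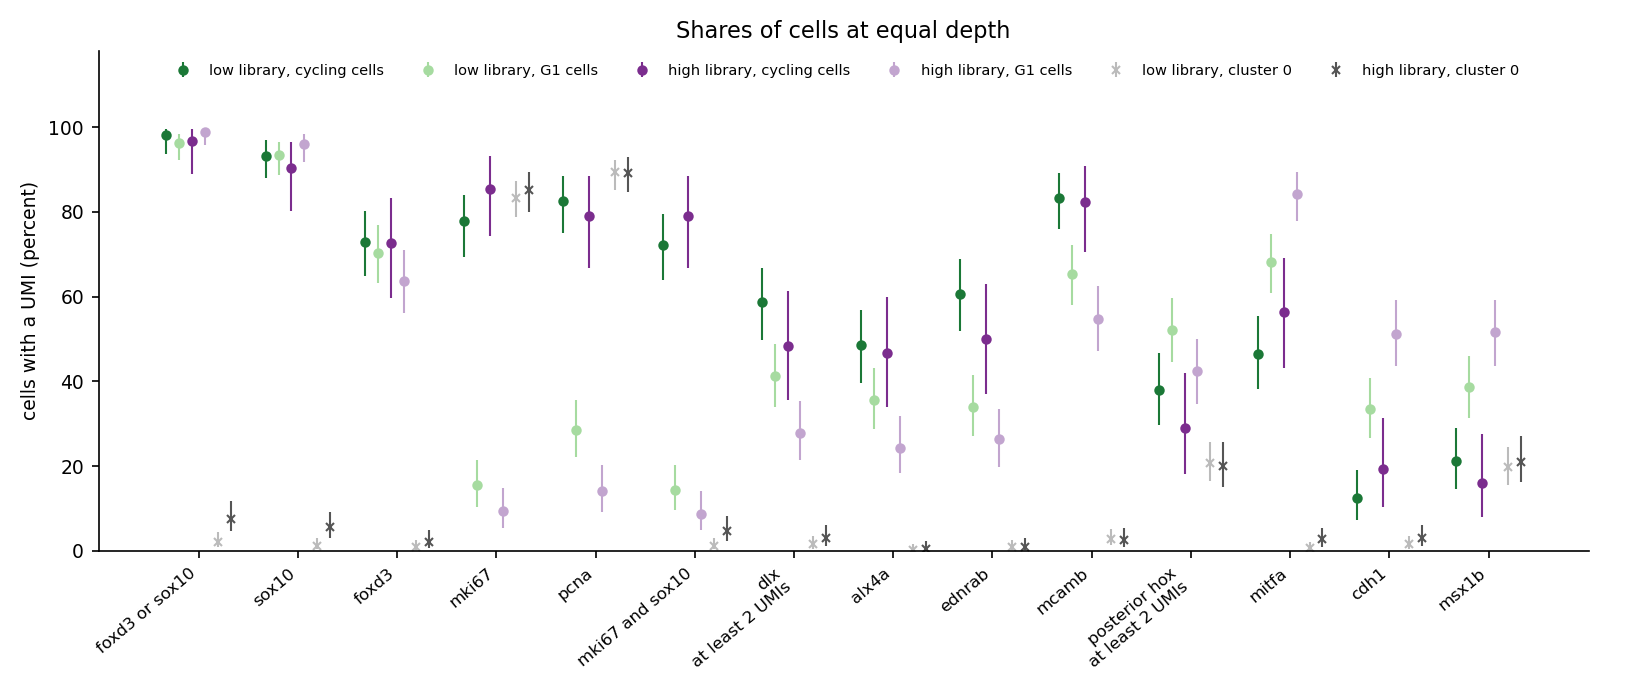
Share of cells, in percent, with at least 1 UMI of the gene named (2 UMIs where stated) after every cell was thinned to 5624 UMIs, for members and G1 cells of both libraries and for cluster 0 (crosses). Points are medians of 20 draws, bars exact 95% binomial intervals. foxd3 or sox10 is near 100% in members and G1 cells, dlx, alx4a, ednrab and mcamb are higher in members, and mitfa, cdh1 and msx1b are higher in G1 cells.

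Of the signalling genes, 3 of 23 and 4 of 15 were 2-fold higher in the members and none lower. The shares over all genes were 8.01% and 7.45% higher and 4.18% and 6.71% lower. The list's medians were 0.45 and 0.17, each smaller than the median half-width of the counting intervals of its genes. Single genes of the list ran from -0.25 to 1.5 and from -0.41 to 1.84. her6, a target of Notch signalling, stood at 241 (216 to 267) and 188 (158 to 222) against 139 (122 to 159) and 74.3 (61.5 to 88.9). The receptor gene notch3, named like gli3 after its values were seen, had ratios of 0.60 (0.14 to 1.06) and 1.84 (1.22 to 2.48). her9, by contrast, was at 141 and 128 against 169 and 171. gli3, a transcription factor of Hedgehog signalling, had 1.14 (0.64 to 1.66) and 1.02 (0.30 to 1.74), while the receptor component smo stood at 122 and 107 against 95.9 and 113. The feedback inhibitors of FGF signalling spry4 and dusp6 lay between -0.24 and 0.10.

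Markers of other cell types were examined in the members. Of the 4 measured epidermis genes 1 was 2-fold higher and 1, cdh1, 2-fold lower in each library, with medians of -0.17 and 0.25. Over all genes 8.01% and 7.45% were higher and 4.18% and 6.71% lower, and with 4 genes nothing is read from the count. krt18a.1 and krt8, keratins in the epidermis list, stood at 465 and 342 and at 1092 and 1153 in the members against 206 and 142 and 716 and 772, while krt4 was at 12.4 and 14.9. fabp7a, expressed by neural progenitors and glia, was at 303 and 228 against 121 and 121, and sox2 at 69.0 and 51.4 against 30.9 and 28.3. The other progenitor factors were near 0, with sox3 at 14.5 and 2.70 and sox19a at 7.59 and 1.35. The neuron marker elavl3 was lower in the members, at 15.9 and 5.41 against 44.8 and 41.5. Summed over each list, epidermis markers took 1790 and 1985 CPM in the members (1404 and 1576 in G1 cells), neuron markers 896 and 1142 (1051 and 1398) and neural progenitor markers 430 and 296 (177 and 185). The neuron sum rested on few genes: of 15 in the list only 2 were measured in each library. As elavl3, 1 of the 2, was low, most of the sum came from 1 other gene. In the high-library members 7 of the 15 had no UMI, so nothing about neurons is read from the sum. Glia and Schwann markers, a list that holds sox10, foxd3 and fabp7a too, took 1507 and 1404 (1530 and 1401). Muscle markers took 80.0 and 33.8 CPM in the members (77.6 and 56.6 in G1 cells), retina markers 26.9 and 21.6 (18.9 and 12.6), and mesoderm markers 84.8 and 36.5 (47.3 and 32.1). Blood and endothelium markers took 71.0 and 114 (87.1 and 60.4), including the leukocyte transcripts of the 2 cells above. Of the 14 to 19 genes in each of the muscle, mesoderm and blood lists, 4 to 13 had no UMI in the members. The part of these cell types in the values above was not tested.

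Genes of stress and tissue dissociation were higher as a list in the low-library members, while atf3, fosab and jun were higher in both libraries. The list's medians were 0.38 (18 genes) and 0.04 (16 genes), with 5 and 0 genes at least 2-fold higher and 0 and 1 lower. Of all genes 8.01% and 7.45% were higher and 4.18% and 6.71% lower. atf3, an immediate early factor, stood at 648 (607 to 690) and 453 (406 to 504) against 308 and 251, and fosab at 328 and 212 against 109 and 128. atf3 was found in 89 of 151 and 29 of 65 members. jun stood at 246 and 170 against 131 and 112. The chaperone hspa8 lay slightly lower in the members, at 3278 and 3259 against 3661 and 3895. The part of dissociation in other values was not tested.

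Between the libraries the members differed in few genes. Of 2441 genes with at least 100 UMIs over both sets, 0.819% were at least 2-fold higher in the high-library members and 0.533% lower. mki67 and sox10 were well under 2-fold apart, and no measured gene of the replication, mitosis, chromatin or crest lists was 2-fold apart. All 14 measured genes of stress and dissociation were lower in the high-library members, from -1.60 to -0.01, with a median of -0.54. Of them 2 were past 2-fold. Summed, the list took 5989 CPM (low) and 5149 CPM (high) in the members, and 5431 and 5527 in the G1 cells. The cause was not tested. The largest gap in the lower direction was rpl26, a ribosomal protein, at 1050 CPM against 62.2 CPM, a ratio of -4.08 (-4.53 to -3.65), and it was -4.01 in the G1 cells. si:ch211-153b23.5 had -3.12 in the members and -3.46 in the G1 cells, so both gaps were present irrespective of phase. cdh6, a cadherin, was at 130 and 44.6, a ratio of -1.55 (-2.13 to -1.01), with -0.68 in the G1 cells. Higher in the high-library members were gpr143 (1.54), rabl6b (1.5) and smim29 (1.57), with 0.97, 1.07 and 0.90 in the G1 cells. dlx2a and dlx5a were lower in the high-library members, at -0.74 and -0.58, and likewise in the G1 cells, at -0.64 and -0.90.

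A few high-library genes rested on few cells. All 158 UMIs of mfap4 and all 183 of cst14b.2 in the high-library members came from the cell with leukocyte genes and without foxd3 or sox10. apoda.1, a gene of the apolipoprotein D family, had 152 UMIs in the high-library members and 6 in the low-library members, and 149 of the 152 came from 10 cells with at least 4 UMIs each. These 10 cells, set apart after their values were seen, comprised 6 in S and 4 in G2M. defbl1, a defensin-like gene, had 127 UMIs in 7 of them and 0 in the other 55 members. alx4b, a paralogue of alx4a, had 48 UMIs in all 10 and 0 in the others. The homeobox gene alx4a was at 1754 CPM in the 10 cells and 260 in the other 55, the purine enzyme pnp4a at 397 and 9.61, and tfec at 233 and 9.61. dlx2a was at 0 UMIs in the 10 cells and at 205 UMIs, or 328 CPM, in the other 55. sox10 was found in all 10 and foxd3 in 9 of them, at 346 and 363 CPM, and mitfa in 3. No low-library member reached 4 UMIs of apoda.1, while 7 low-library G1 cells and 1 high-library G1 cell did. Without those 10 cells the alx4a level of high-library members, 260, lay below that of the low-library members, 341.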

How the data were processed

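Droplet libraries (10x Genomics 3', 1 per GFP fraction) were sequenced and, per the file headers and the submitters' processing notes, aligned to GRCz11 and counted with Cell Ranger 6.1.2. The deposited matrices hold UMI counts per gene and cell. The cluster, phase, S score and G2M score of each cell are the authors' deposited values from Seurat; which genes entered the scores is not given in those sources. Library totals were 14826056 (low) and 17545390 (high) UMIs over the annotated cells.

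Members and gene lists were chosen with earlier results of these data known. Counts were summed per class and library and divided by the summed total (CPM). Intervals are exact: Poisson for sums, conditional for ratios, Clopper-Pearson for shares, at 95%, and cover counting error only. A ratio needed 50 UMIs over both classes in a library (100 between libraries), a count of 0 was set to 3 counts, and past 2-fold counts as called. Shares were compared after thinning each cell to 5624 UMIs, the 10th percentile, as the median of 20 draws. Of 569 symbols in 23 lists, 12 were not found.

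Named genes are those of the rule and its markers, up to 6 per list by UMIs in the members, the 12 highest and 12 lowest by the smaller of both libraries' ratios (again without the cycle lists), and 8 each way for G2M against S and for high against low; exceptions are marked in the text. Scrublet's automatic threshold marked 5 and 6 barcodes, under 0.5% of them, so no doublet call was used. Levels of different genes are not compared, since 3' capture differs between genes. Reads of near-identical copies, such as histone genes or clone-named families, can be split by the counting. Alternatives were the pigment limit, stricter phases, removal of the top 5% of Scrublet scores, TMM and median-of-ratios factors, UMI minimums, thinning depth, equal weight per cell and the deposited aggregated matrix. Scripts were tested on simulated data. Python 3.11.15, numpy 2.4.6, pandas 2.3.3, scipy 1.17.1, scanpy 1.11.5, R 4.3.3 and edgeR 4.0.16 (normalization factors only) were used.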

Additional observations from a re-analysis of the deposited data

Results flagged for a closer look

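The ratio of cycling to G1 cells had opposite signs in the libraries for apoda.1. It was 5.18 (4.22 to 6.34) on the log2 scale in the high library, with 152 UMIs in the members and 9 in the G1 cells, and -3.31 (-4.81 to -2.11) in the low library, with 6 and 65. The difference between the libraries was not tested, since each fraction is 1 library. In the high library 149 of the 152 UMIs came from 10 members, and in the low library 63 of the 65 came from 7 G1 cells.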

How the results depend on the processing

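Of 170 alternative values of the main results, 147 stayed and 23 moved. A share stayed within its counting interval, and a count of genes within 1.5 times. List medians, 72 of the 170 values and all of the other lists, stayed within the median half-width of their genes' counting intervals. That width is not an interval of the median itself, so staying does not show that a median was stable. Of 216 values of the other lists, 210 stayed and 6 moved. Staying within the interval did not fix the sign of a median near 0: 4 of 72 medians of the main lists, all of neural crest specifiers, and 15 of 216 of the other lists changed sign, none of them past 2-fold in the main value. The crest specifier median was -0.06 and -0.05 in the high library with TMM and median-of-ratios factors, -0.16 in the low library with a minimum of 10 UMIs and -0.04 in the high library with 200. The others were of the hox, adhesion, G1 cyclin, growth, stress and signalling lists. With no pigment limit, the cycling share of the high library was 16.8%, the dlx share of its G1 cells 17.8%, its genes lower in cycling cells 629 and its dlx, alx and ectomesenchyme median 1.62. Thinning to 2000 UMIs gave dlx shares of 34.6% and 24.7% (low members and G1 cells) and 27.7% and 15.4% (high), and asking for at least 1 UMI gave 71.5%, 55.2% and, in high-library G1 cells, 37.4%. Calling cells by 3 UMIs of the cycle lists at equal depth gave cycling shares of 73.0% and 44.6%. A minimum of 10 UMIs gave 1204 genes higher and 724 lower (low) and 1177 and 895 (high), against 389, 203, 313 and 282; a minimum of 200 gave 97 and 41, and 68 and 60, with a pigment lineage median of -0.94 in the low library. The cause was not tested; a minimum changes which genes enter. Leaving out the members with leukocyte transcripts, chosen after seeing the data, moved none of these. Leaving out the 10 members with at least 4 UMIs of apoda.1, also chosen after seeing the data, moved the high-library pigment lineage median to -1.85. No paired analysis was possible because each fraction has 1 library and no result comes from a test across samples.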

Other observations

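The 10 high-library members with at least 4 UMIs of apoda.1 held 4 to 34 of them each, with a median of 13.5. Each also held 13 to 29 UMIs of alx4a, with a median of 20. gmps, a gene of purine synthesis chosen after its values were seen, stood at 795 CPM in these cells and 136 in the other 55 members. gpd1b had 46 UMIs in 6 of them. The cycle transcript mki67 was found in 7 of the 10 and pcna in all 10. dlx5a had 1 UMI in these cells and 142 in the other 55. In the low library the 7 G1 cells with at least 4 UMIs of apoda.1 held 63 of that gene, and no low-library member held pnp4a.

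her2, a hairy-related gene in no list and chosen after its values were seen, had 62 UMIs in 23 low-library members and 7 in the G1 cells, a log2 ratio of 3.27 (2.15 to 4.65). In the high library it had 61 UMIs in 12 members and 2 in the G1 cells, a ratio of 6.03 (4.12 to 9.11).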
